A study of Mus musculus with 6 samples.

Results

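Expression of 8 marker genes of the neural crest lineage was compared between Prox1 mutant and wildtype embryonic mouse pancreas. They comprise 5 genes of crest cells and their glial descendants, Sox10, Foxd3, Erbb3, Fabp7 and Ednrb, and 3 genes of autonomic neurons, Phox2a, Dbh and Prph. Each was taken by its symbol from the count files, where all 8 were found among 23337 genes. Mutant pools 1 to 3 came from embryos that the labels call Prox1-nullyzygous, with the alleles written Prox1 GFPCre/D, and control pools 1 to 3 came from wildtype embryos. The tissue was pancreas of NMRI mice at E13.5, a stage of midgestation. A pool held 5 to 6 pancreata and gave 1 mRNA library, so variation between single embryos was not measured. The labels do not say what the D allele lacks, nor whether any pools came from the same litters.

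Neural crest cells leave the dorsal neural tube, enter the pancreas from the gut side and settle around the epithelium and the islets, where they become autonomic neurons and glia. Sox10 and Foxd3 are transcription factors that hold crest cells in a precursor or glial state. Erbb3, the neuregulin receptor, and Ednrb, the receptor of endothelin 3, receive the signals that support migrating crest cells, and Fabp7 is a fatty acid binding protein of immature glia. On the neuronal side, Phox2a is a homeodomain factor of autonomic neurons, Dbh is the enzyme that makes noradrenaline from dopamine, and Prph encodes peripherin, an intermediate filament of peripheral neurons. Several of these genes have other sources in a whole pancreas: Erbb3 is also made by epithelia and Ednrb by blood vessels and mesenchyme. Prox1 itself is a homeobox factor of pancreatic progenitors, lymphatic vessels and other cells.

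The libraries held between 16060424 and 17633867 reads assigned to genes, and between 17332 and 17473 genes had at least 1 read. Levels are given as CPM, the count scaled to the library's total after TMM, so that 1 CPM stands for 15.9 to 17.5 reads. Fold changes are mutant over control from edgeR's quasi-likelihood test, and a gene was called at a Benjamini-Hochberg adjusted p under 0.05 over the 14687 genes tested. By that rule 7.95% of tested genes were called in either direction, 4.28% lower in mutants and 3.67% higher in mutants. All mutant pools lay below all control pools for 13.4% of tested genes, and the groups did not overlap in either direction for 26.4%. Prox1 reads stood at 83.6, 104 and 91.6 CPM in mutant pools 1 to 3, against 105, 103 and 107 CPM in control pools 1 to 3 (log2 fold change -0.17, edgeR adjusted p = 0.235). Reads over the whole gene do not check the labelled genotype where the removed part is unknown. Xist, the RNA of the inactive X chromosome, was nearly absent from mutant pool 1 (0.126 CPM) and from control pool 3 (0.526 CPM), and control pool 3 also stood apart for neuronal genes, as described with each result.

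Of the 8 genes, Sox10 and Phox2a were lower in mutant pancreas, none was higher, and 6 were not called. Sox10 stood at 1.95-fold and Phox2a at 4.15-fold lower levels in mutants. All 3 neuronal genes and 1 of the 5 glial crest genes had every mutant pool below every control pool. Dbh passed the low-count filter through the control pools alone and adds no support to that count. Prph separated narrowly, at 3.58 CPM in the highest mutant pool and 3.64 CPM in the lowest control pool. The other glial crest genes, Foxd3, Erbb3, Fabp7 and Ednrb, had overlapping groups and log2 fold changes between -0.32 and -0.02. In bulk tissue, fewer cells of a type and less RNA per cell cannot be told apart, and this holds for every value below.

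**Figure D1:**
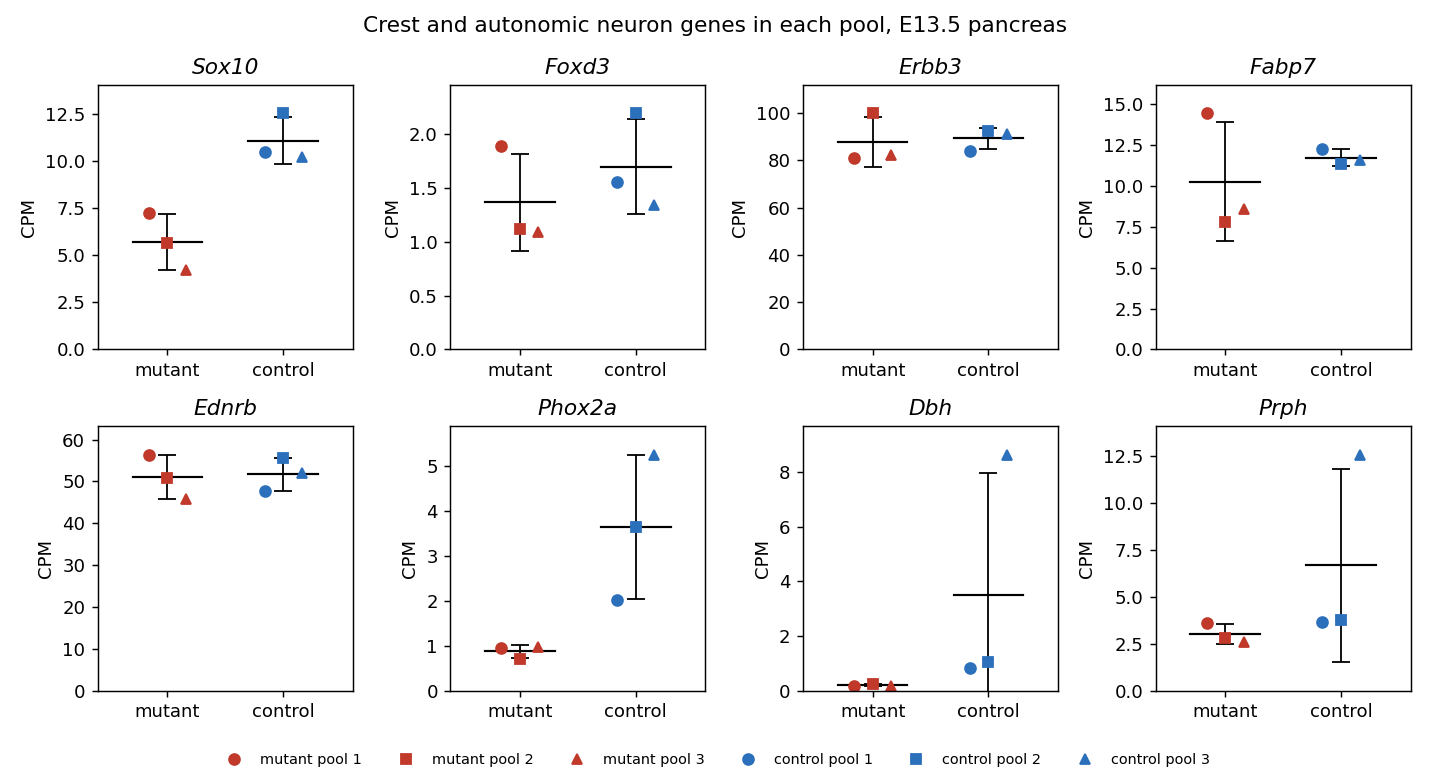
CPM of each of the 8 genes (y axis, linear, from 0) in the 3 mutant pools (red, left) and the 3 control pools (blue, right); symbols mark the pool number, long bars the mean and whiskers 1 SD over 3 pools, cut at 0 for Dbh in controls. Sox10 and all 3 autonomic neuron genes separate the groups, Prph narrowly and Dbh after passing the low-count filter through the control pools alone. Control pool 3 sits far above the other controls for Dbh (8.64 CPM) and Prph (12.6 CPM).

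Among the glial crest genes, Sox10 was the only one called with all pools. It lies on chr15:79154908-79165240 (GRCm38, minus strand) and shares no exon bases with another annotated gene. It had 115, 96 and 74 reads in mutant pools 1 to 3, against 176, 206 and 175 reads in control pools 1 to 3. In CPM these were 7.23, 5.65 and 4.23 in the mutant pools, against 10.5, 12.5 and 10.2 in the control pools. The highest mutant pool stayed well under the lowest control pool. The log2 fold change was -0.96 (SE 0.187, 95% interval -1.33 to -0.60, edgeR adjusted p = 0.0154). Leaving out control pool 3 gave a log2 fold change of -1.02 (edgeR adjusted p = 0.0284). Without mutant pool 2, which lies between the other mutant pools, the log2 fold change was -0.96 but the call was lost (edgeR adjusted p = 0.0620).

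Foxd3, which acts with Sox10 in premigratory and early migrating crest, had few reads. It had 30, 19 and 19 reads in mutant pools 1 to 3, against 26, 36 and 23 reads in control pools 1 to 3, and mutant pool 1 exceeded all but 1 of the controls. Its log2 fold change was -0.32 with an interval of -0.92 to 0.28 (edgeR adjusted p = 0.635) and the interval reaches close to the Sox10 estimate. A small RNA gene on the same strand, Gm23366, covers 89 of its exon bases (3.83%), and reads there could be assigned to either gene.

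The receptor genes Erbb3 and Ednrb did not pass the test and were the most precisely measured members. Erbb3 had 81.1, 99.9 and 82.2 CPM in mutant pools 1 to 3, against 84.0, 92.5 and 91.3 CPM in control pools 1 to 3. Its log2 fold change of -0.02 had an interval of -0.19 to 0.14 (edgeR adjusted p = 0.915). For Ednrb the levels were 56.4, 50.8 and 45.9 CPM in mutant pools 1 to 3, against 47.6, 55.5 and 52.0 CPM in control pools 1 to 3. The log2 fold change was -0.02 with an interval of -0.19 to 0.15 (edgeR adjusted p = 0.936), and in both genes the mutant pools lay on either side of the controls. The sign of both estimates turned when single pools were left out, within -0.13 to 0.03 for Erbb3 and -0.10 to 0.05 for Ednrb on the log2 scale. Reads per kilobase of exon put these genes above Sox10: Erbb3 averaged 14.6 CPM per kilobase in mutant pools and 14.8 in control pools, Ednrb 12.0 and 12.1, and Sox10 1.87 and 3.63. Sox10 reads thus came to 8.91%, 5.66% and 5.15% of Erbb3 reads in mutant pools 1 to 3, against 12.5%, 13.6% and 11.2% in control pools 1 to 3.

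Fabp7, the glial lipid binding gene, varied more between mutant pools than between controls. It had 14.5, 7.77 and 8.58 CPM in mutant pools 1 to 3, against 12.3, 11.3 and 11.6 CPM in control pools 1 to 3. Mutant pool 1 was above every control, and the other mutant pools were below every control. The coefficient of variation was 35.5% in mutants and 4.22% in controls, where counting error alone would give 7.65% in mutants and 7.12% in controls. With all pools the log2 fold change was -0.20 (edgeR adjusted p = 0.675). Without mutant pool 1 it was -0.52 and Fabp7 was called (edgeR adjusted p = 0.0442). Mutant pool 1 was the highest mutant pool for Sox10, Foxd3, Fabp7 and Ednrb.

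The autonomic neuron genes had log2 fold changes further below 0 than any glial crest gene with all pools, and of the 3 only Phox2a was called. Without control pool 3, Prph (-0.31) lay nearer 0 than Sox10 (-1.02) and Foxd3 (-0.47). The stretches directly before their RefSeq start sites (GRCm38.p6, plus strand, 5′ to 3′) are shown because these 3 genes have separated groups and with exact motif matches on either strand in capitals. The first motif was ATTA, the core that homeodomain proteins bind. The second was TATAAA, the element that positions transcription starts. The last was CCGCCC, a GC box. Phox2a is given at chr7:101818063-101818312 and Prph at chr15:99054924-99055173. For Dbh, whose upstream window GENCODE annotates as transcribed, only the pieces with matches are given, at chr2:27165342-27165371 and chr2:27165429-27165458.
Phox2a: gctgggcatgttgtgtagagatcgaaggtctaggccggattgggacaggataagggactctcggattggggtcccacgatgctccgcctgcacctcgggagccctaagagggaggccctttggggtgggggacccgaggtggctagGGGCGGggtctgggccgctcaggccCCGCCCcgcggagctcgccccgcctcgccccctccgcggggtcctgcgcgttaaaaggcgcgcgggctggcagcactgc
Prph: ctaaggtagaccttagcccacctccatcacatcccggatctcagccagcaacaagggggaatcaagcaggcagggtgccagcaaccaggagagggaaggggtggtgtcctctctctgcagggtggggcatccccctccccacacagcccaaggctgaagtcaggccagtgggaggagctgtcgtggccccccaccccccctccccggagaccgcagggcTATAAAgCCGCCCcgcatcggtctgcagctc
Dbh first piece: catgtgtcATTAgtgccaATTAggggagat
Dbh second piece: ccagacaaatgtgATTAggtgcagcctggc
The table held entries for 6 of the 8 genes, without Sox10 and Erbb3. In 250 bases upstream, Dbh had 3 matches to ATTA, while Phox2a and Prph had none. Of 32851 mouse windows of that length, 54.9% held ATTA at least once and 17.3% held it 3 or more times. Prph had 1 TATAAA, found in 12.4% of windows, lying just before a CCGCCC. Phox2a had 2 matches to CCGCCC on either strand, a motif found in 32.7% of windows. Foxd3 and Ednrb each had 1 ATTA and Fabp7 had none of the 3 motifs. These matches describe the letters and show no binding.

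Phox2a (chr7:101818313-101822726, GRCm38, plus strand) had 15, 12 and 17 reads in mutant pools 1 to 3, against 34, 60 and 90 reads in control pools 1 to 3. In CPM it stood at 0.943, 0.707 and 0.972 in the mutant pools, against 2.03, 3.65 and 5.26 in the control pools. All mutant pools lay below the lowest control, and the controls were spread widely. Its log2 fold change was -2.05 (SE 0.368, 95% interval -2.78 to -1.33, edgeR adjusted p = 0.0108). The decrease was called without control pool 3 (log2 fold change -1.70, edgeR adjusted p = 0.0252) and was not called without mutant pool 2 (-1.92, edgeR adjusted p = 0.0533). An exon of Inppl1 on the opposite strand overlaps 95 of its exon bases (4.67%), and the strand setting of the counting is not given in the sources used here.

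Dbh, on chr2:27165233-27183200 (GRCm38, plus strand), had 3, 4 and 3 reads in mutant pools 1 to 3, against 14, 17 and 148 reads in control pools 1 to 3. The corresponding levels were 0.189, 0.236 and 0.172 CPM in the mutant pools, against 0.835, 1.03 and 8.64 CPM in the control pools. The groups did not overlap, but control pool 3 alone held most of the reads. Dbh passed the low-count filter through the control pools alone. Its fitted log2 fold change was -4.10 (SE 1.09, 95% interval -6.24 to -1.96) and it was not called (edgeR adjusted p = 0.0546). The summed reads were 10 in mutants and 179 in controls, a 17.9-fold lower level in mutants with an exact interval of 9.52 to 38.0 for counting error only. Without control pool 3 the sums were 10 in mutants and 31 in controls, 4.71-fold lower in mutants with a counting interval of 2.25 to 10.8. The estimate then became -2.20 on the log2 scale and passed the test (edgeR adjusted p = 0.0272).

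Prph (chr15:99055174-99058978, GRCm38, plus strand) had 57, 48 and 45 reads in mutant pools 1 to 3, against 61, 62 and 215 reads in control pools 1 to 3. Its levels were 3.58, 2.83 and 2.57 CPM in the mutant pools, against 3.64, 3.77 and 12.6 CPM in the control pools. The highest mutant pool and the lowest control pool were nearly equal, so the separation is narrow. The log2 fold change was -1.16 (SE 0.465, 95% interval -2.07 to -0.25, edgeR adjusted p = 0.191). It was -0.31 without control pool 3 (edgeR adjusted p = 0.483). DESeq2 called Prph (adjusted p = 0.0412) and Dbh (adjusted p = 0.00738) lower with all pools. The number of the 8 genes called lower was 4 there, where 618 of 15583 tested genes were called lower. It was 2 in edgeR, where 628 of 14687 were. The count of 4 includes Dbh, which passed edgeR's low-count filter through the control pools alone and adds no support to it.

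The spread between pools thus differed between the gene groups. In controls, the coefficient of variation of CPM was 44.3% for Phox2a, 127.0% for Dbh and 76.8% for Prph, while counting error would give 12.8%, 12.9% and 9.42%. Most of this spread for Dbh and Prph came from control pool 3. Control pools 1 and 2 stood at 0.835 and 1.03 CPM for Dbh and at 3.64 and 3.77 CPM for Prph. For the 5 glial crest genes the coefficient of variation was between 4.22% and 26.1% in controls, where counting error would give 2.58% to 18.8%. In mutants, the neuronal genes had values of 16.7% for Phox2a, 16.7% for Dbh and 17.5% for Prph, where counting error would give 26.1%, 54.8% and 14.1%. The mutant spread of Phox2a and Dbh is thus under the counting error and shows no close agreement between pools. The glial crest genes ran between 10.4% and 35.5% in mutants, where counting error would give 2.60% to 21.0%. The biological coefficient of variation that edgeR estimated for each gene was 65.0% for Dbh against 19.8% for genes of its level, and 37.6% for Prph against 16.4%. For Sox10 it was 15.3% against 13.6%.

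Within each pool, the neuronal mean was lower relative to the glial mean in every mutant pool than in any control pool. The mean log2 CPM of the 3 neuronal genes minus that of the 5 glial crest genes was -4.09, -3.88 and -3.76 in mutant pools 1 to 3, against -3.03, -2.83 and -0.86 in control pools 1 to 3. The mean difference between the groups was -1.67 log2 with all pools and -0.98 without control pool 3. The glial mean was 3.67 ± 0.265 log2 CPM in mutants and 3.99 ± 0.119 in controls (SD, n = 3 each). It includes Erbb3 and Ednrb, which have other sources in a whole pancreas, so it is not a measure of crest cells alone. The neuronal mean was -0.24 ± 0.098 log2 CPM in mutants and 1.75 ± 1.15 in controls (SD, n = 3 each). These values are a description, with no test, as the genes were chosen with results known. The neuronal mean includes Dbh, which passed the low-count filter through the control pools alone and adds no support to the difference. Summed CPM of the glial crest genes, mostly Erbb3 and Ednrb, was 161, 165 and 142 in mutant pools 1 to 3, against 156, 174 and 167 in control pools 1 to 3. Summed neuronal CPM was 4.71, 3.77 and 3.72 in mutant pools 1 to 3, against 6.50, 8.46 and 26.5 in control pools 1 to 3. Phox2a reads came to 13.0%, 12.5% and 23.0% of Sox10 reads in mutant pools 1 to 3, against 19.3%, 29.1% and 51.4% in control pools 1 to 3, so this pair of ratios overlapped between the groups.

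Other genes of the lineage were read from lists in the same fit. Of 16 further crest and glial genes, 12 could be tested, and 2 were lower, 1 was higher and 9 were not called in mutants (median log2 fold change -0.23, against 0.00 over all tested genes). Gfra3, the artemin co-receptor of sympathetic precursors, had 6.47, 8.36 and 7.38 CPM in mutant pools 1 to 3, against 13.4, 13.7 and 17.1 CPM in control pools 1 to 3 (log2 fold change -0.99, edgeR adjusted p = 0.00355). Mbp, a myelin protein gene with transcripts in many cell types, was lower by a smaller step (log2 fold change -0.36, edgeR adjusted p = 0.0111). Ngfr, the low-affinity neurotrophin receptor used to isolate crest cells, was higher (log2 fold change 0.44, edgeR adjusted p = 0.0398), a call lost without mutant pool 1 (edgeR adjusted p = 0.124), mutant pool 2 (0.146), control pool 1 (0.138) or control pool 3 (0.0922). Mbp just missed the threshold when control pool 1 was left out (edgeR adjusted p = 0.0501). Among those not called were Sox8, a relative of Sox10 (log2 fold change -0.10), and S100b, a calcium-binding protein gene of glia (0.06). Sox8 had 5.47, 6.54 and 5.37 CPM in mutant pools 1 to 3, against 5.49, 7.24 and 5.84 CPM in control pools 1 to 3. Pax3, Tfap2a, Tfap2b and Egr2 were too low to be tested.

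Of 17 further autonomic genes, 14 were tested, with 3 lower, 1 higher and 10 not called (median log2 fold change -0.48, and -0.30 without control pool 3). Chrna3, the ganglionic nicotinic receptor subunit, had 0.817, 0.648 and 0.801 CPM in mutant pools 1 to 3, against 1.85, 2.56 and 3.62 CPM in control pools 1 to 3. Its log2 fold change was -1.82 (edgeR adjusted p = 0.00868), and it was -1.54 without control pool 3 (edgeR adjusted p = 0.0234). Vip, a neuropeptide of parasympathetic and enteric neurons, stood at 0.189, 0.294 and 0.172 CPM in mutant pools 1 to 3, against 0.776, 1.4 and 2.63 CPM in control pools 1 to 3 (log2 fold change -2.84, edgeR adjusted p = 0.0161). Vip passed the low-count filter through the control pools alone, so among genes that passed it had to be higher there, and it adds no support to the count of lower genes. Leaving out mutant pool 1, 2 or 3 put Vip outside the threshold, with edgeR adjusted p of 0.0544, 0.0512 and 0.0646. The choline transporter gene Slc5a7 went the other way, at 6.10, 4.83 and 4.69 CPM in mutant pools 1 to 3, against 2.68, 2.25 and 1.75 CPM in control pools 1 to 3 (log2 fold change 1.22, edgeR adjusted p = 0.00839).

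Among the uncalled autonomic genes, Th, the first enzyme of noradrenaline synthesis, had a log2 fold change of -0.79 (edgeR adjusted p = 0.121). Th stood at 1.95, 1.06 and 1.94 CPM in mutant pools 1 to 3, against 2.51, 2.68 and 3.39 CPM in control pools 1 to 3, without the excess of control pool 3 seen for Dbh. Hand2, a sympathetic factor that mesenchyme also makes, had a log2 fold change of 0.03, and Ddc, the decarboxylase shared with endocrine and epithelial cells, 0.41. Slc6a2, Slc18a3 and Chat were too low to be tested. Of 15 general neuronal genes, 4 were lower and 11 were not called (median log2 fold change -0.56). The 4 were the neuronal tubulin Tubb3 (log2 fold change -1.46), the RNA-binding genes Elavl3 (-1.75) and Elavl4 (-1.23), and the microtubule gene Dcx (-0.42). Elavl3 missed the threshold when mutant pool 2 was left out (edgeR adjusted p = 0.0735), and so did Dcx when control pool 1 was left out (0.0590). Stmn2 and the neurofilament genes Nefl and Nefm, with log2 fold changes of 0.15, -0.56 and -0.40, were not called. These became 0.52 for Stmn2, -0.10 for Nefl and -0.12 for Nefm without control pool 3.

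**Figure D2:**
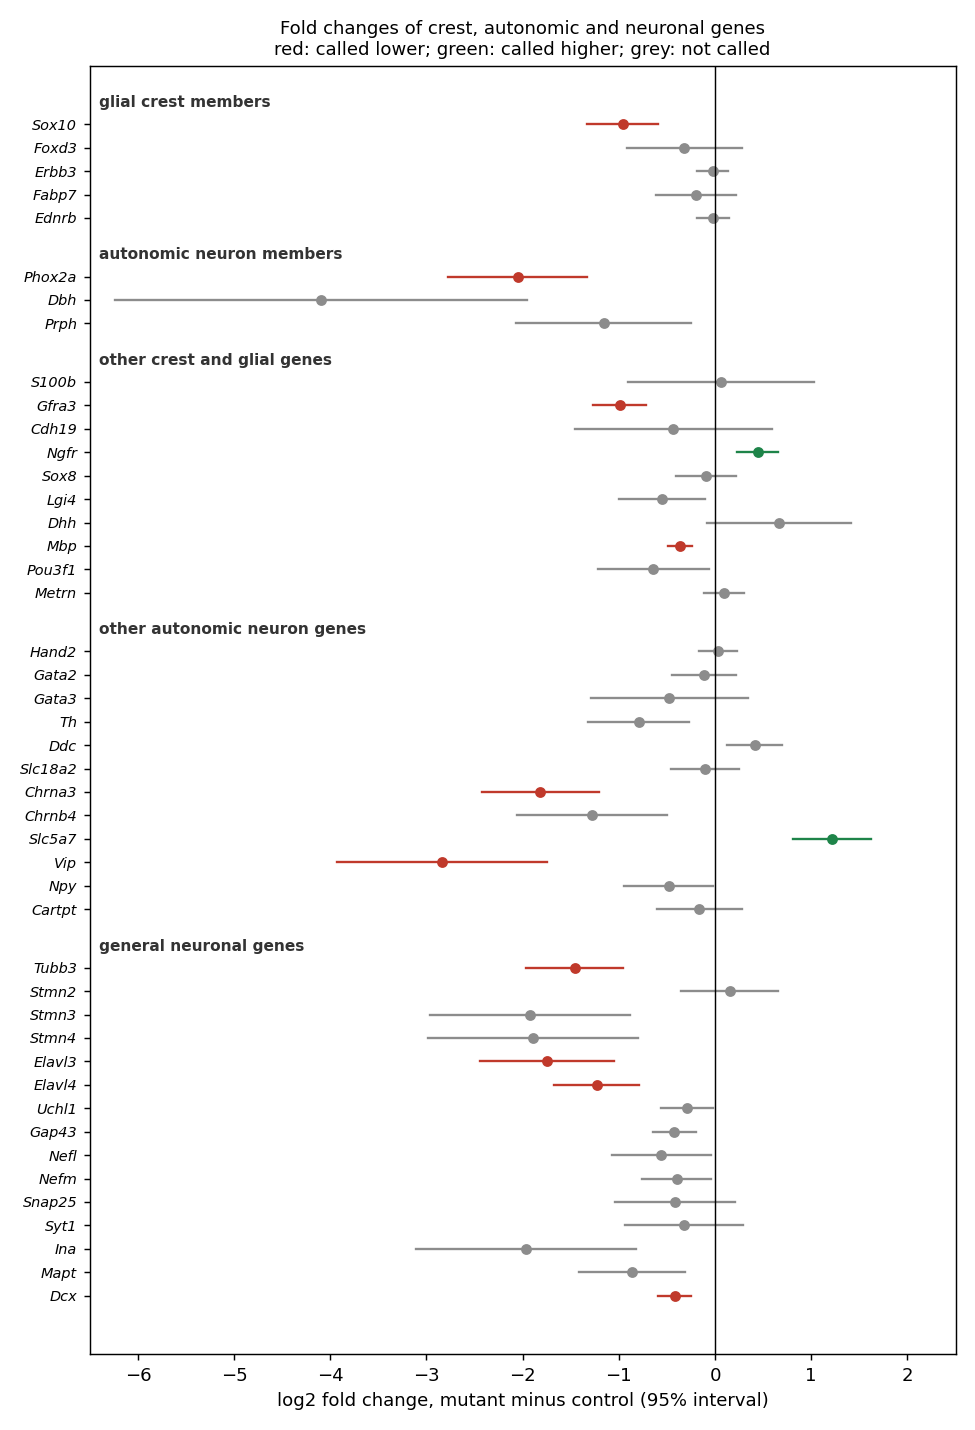
Log2 fold change, mutant minus control (x axis), with normal 95% intervals for the 8 genes and for tested members of the other crest and glial, other autonomic and general neuronal lists; red marks called lower, green called higher and grey not called. Phox2a and Chrna3 lie at -1.82 or below, while Erbb3 and Ednrb lie at -0.02.

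Signals that reach crest cells were compared because Erbb3 and Ednrb are their receptors. Among 18 ligand and receptor genes, 1 was lower, 2 were higher and 15 were not called (median log2 fold change -0.01, and 0.03 without control pool 3). Nrg1, the ligand of Erbb3, had a log2 fold change of -0.05, and its partner receptor Erbb2 0.20. Edn3, the ligand of Ednrb, had a log2 fold change of -0.14 and Ece1, the enzyme that matures it, -0.10, and none of these 4 genes was called. Ret, the GDNF family receptor of enteric and autonomic precursors, was lower at 22.7, 29.9 and 25.6 CPM in mutant pools 1 to 3, against 41.6, 41.9 and 51.9 CPM in control pools 1 to 3 (log2 fold change -0.79, edgeR adjusted p = 0.00472). Its co-receptor Gfra1 was higher (log2 fold change 0.59, edgeR adjusted p = 0.00388), as was the neurotrophin 3 receptor Ntrk3 (1.52, edgeR adjusted p = 0.0107). The ligands Gdnf (log2 fold change -0.28), Nrtn (-0.36) and Artn (0.51) were not called.

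Control pool 3 held the highest level of all 3 autonomic neuron genes and of none of the 5 glial crest genes. Over all tested genes, 21.1% were highest in that pool. It was also the highest pool for 13 of the 15 general neuronal genes and 6 of the 14 tested autonomic genes. Relative to the mean of control pools 1 and 2, its level was 9.24-fold for Dbh, 3.39-fold for Prph and 1.85-fold for Phox2a, against 0.89-fold for Sox10 and 1.04-fold for Erbb3. At least 2-fold ratios occurred in 104 of 14687 tested genes (0.708%), and the median ratio over all was 0.999. The noradrenaline transporter gene Slc6a2 had 3, 0 and 2 reads in mutant pools 1 to 3, against 3, 1 and 73 reads in control pools 1 to 3. Tfap2b, a factor of sympathetic precursors, had 5, 7 and 1 reads in mutant pools 1 to 3, against 3, 5 and 71 reads in control pools 1 to 3. Both were singled out after their values were seen. Without control pool 3, edgeR called 798 of 14844 tested genes in either direction. Among them were 2 of the 3 neuronal genes (Phox2a and Dbh) and 1 of the 5 glial crest genes (Sox10), all lower. Dbh passed the low-count filter through the control pools alone and adds no support to that count. Mutant pool 1, the other pool nearly without Xist, had 4.71 summed CPM of the neuronal genes. This was below every control pool and above mutant pools 2 (3.77 CPM) and 3 (3.72 CPM). Whether the neuronal values go with Xist was not tested, as each group held a single pool nearly without it. In the fit without control pool 3, 3 of 14 other autonomic genes were called lower and 2 higher (Slc5a7 and Ddc). That fit also called 4 of 15 general neuronal genes and 2 of 12 other crest and glial genes lower.

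**Figure D3:**
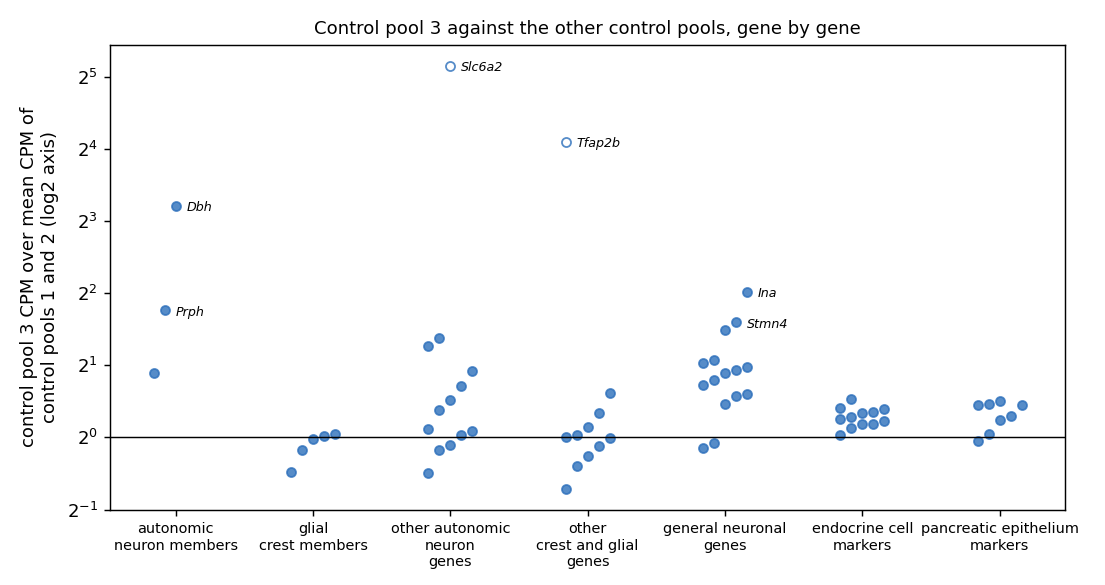
Ratio of control pool 3 to the mean of control pools 1 and 2 (y axis, log2 scale, from CPM) for tested genes of 7 groups; open circles are Slc6a2 and Tfap2b, which were too low to be tested and rest on 1 to 5 reads in the other control pools. Dbh (9.24) and Prph (3.39) stand above, as do the general neuronal genes Ina (4.06) and Stmn4 (3.03), and the glial crest genes lie near or under 1.

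Markers of other cell types were read from lists in the same fit, where 7.95% of all tested genes were called in either direction. Endocrine markers were lower in mutants for 8 of 12 genes (median log2 fold change -0.60), among them the progenitor factor Neurog3 (-1.09) and the glucagon gene Gcg (-0.72). Their summed level was 1444 to 1551 CPM in mutants and 2021 to 2653 CPM in controls, and 11 of the 12 were highest in control pool 3. Without control pool 3, edgeR called 8 of them lower. Endocrine progenitors are known to share part of the neuronal expression programme. The part of this list in the neuronal values was not tested. Of the 8 epithelial markers 1 was lower (Cdh1, log2 fold change -0.42), and 6 were highest in control pool 3. Their summed level was 2689 to 3358 CPM in mutants and 2266 to 3274 CPM in controls. Mesenchyme markers were higher for 1 of 6 genes (Col1a1, log2 fold change 0.31), with a summed level of 9638 to 10920.2 CPM in mutants and 8645 to 8893 CPM in controls. Without control pool 3, Col1a1 was not called (edgeR adjusted p = 0.0590) and the epithelial gene Krt18 was called higher (log2 fold change 0.40, against 0.21 with all pools, edgeR adjusted p = 0.0368). None of the 5 endothelial markers was called by edgeR, and their sum was 563 to 730 CPM in mutants and 502 to 574 CPM in controls.

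Adrenal tissue, a neighbouring source of Dbh, was checked with 7 markers, of which 2 could be tested. Pnmt, the adrenaline-making enzyme, had 0 reads in every pool, and Cyp21a1 and Mc2r had 0 to 2 reads. In control pool 3, relative to the mean of control pools 1 and 2, Nr5a1 stood at 0.414-fold, Star at 0.581-fold and Cyp11a1 at 1.32-fold. The part of adrenal tissue in the Dbh values was not tested. Cyp11a1, a steroidogenic enzyme, was higher in mutants at 8.55, 8.54 and 7.89 CPM in pools 1 to 3, against 2.09, 0.913 and 1.99 CPM in control pools 1 to 3 (log2 fold change 2.32, edgeR adjusted p = 0.00098). The summed adrenal level was 10.2 to 11.6 CPM in mutants and 3.21 to 4.12 CPM in controls, most of it Cyp11a1 in mutants. Of the sensory ganglion markers, Prdm12 had 0 reads in every pool, Pou4f1 stayed at or under 0.400 CPM, Avil was not called and Drgx was not found under its symbol. Among the melanocyte markers, Tyr, Tyrp1 and Mlana stayed at or under 0.189 CPM. Dct had reads in every pool (1.43 to 3.21 CPM), as had Pmel (0.943 to 1.75 CPM), and neither was called. For stomach, gut and spleen, 1 of 5 tested markers was higher (Barx1, log2 fold change 0.39), none was lower, with a summed level of 125 to 142 CPM in mutants and 113 to 163 CPM in controls. Sox2, a foregut factor, reached 5.72 CPM in control pool 2 and at most 0.716 CPM elsewhere. Barx1 was not called when control pool 3 was left out.

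**Figure D4:**
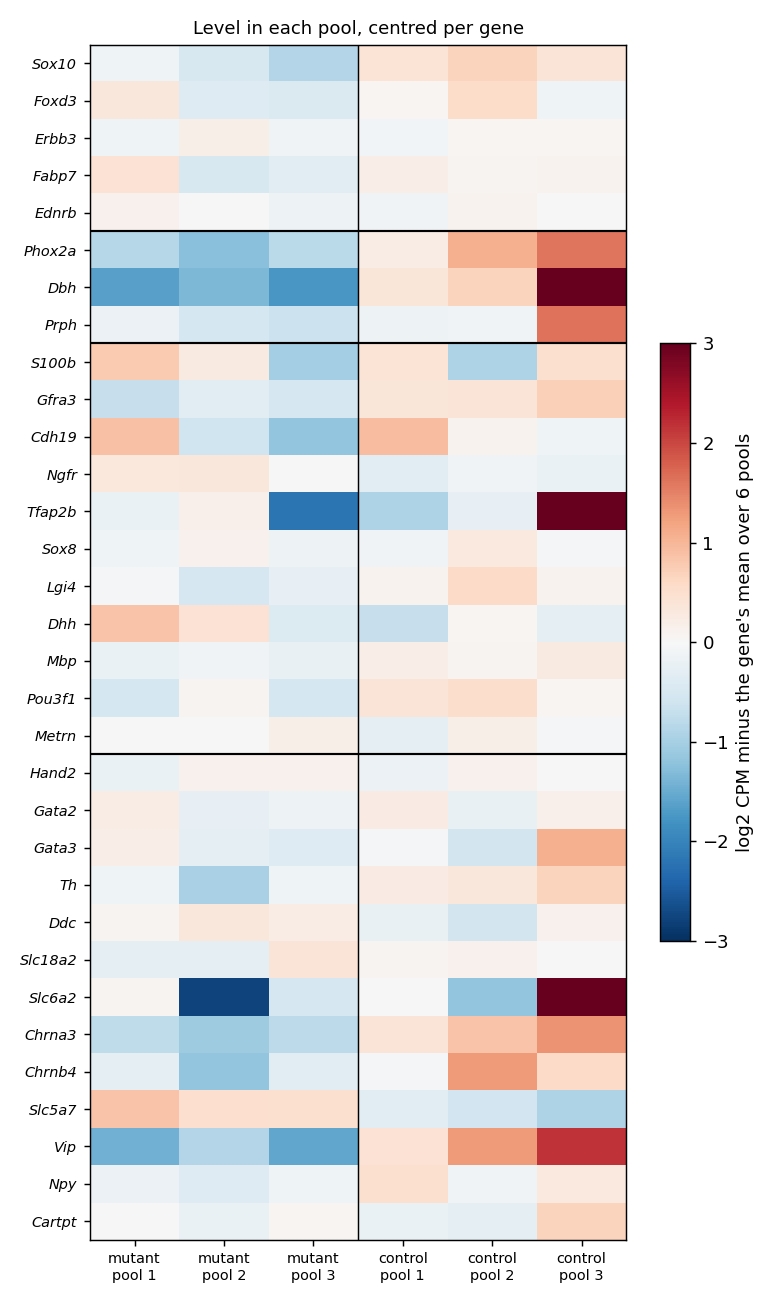
Log2 CPM of each gene minus its own mean over the 6 pools (colour, saturated at 3 in either direction) for the 8 genes and for genes of the other crest and glial and other autonomic lists, with mutant pools on the left and control pools on the right; Tfap2b and Slc6a2 are shown although too low to be tested. Phox2a and Chrna3 are low in every mutant pool, and Dbh, Tfap2b and Slc6a2 share a single high pool, control pool 3.

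Genes with the most similar profiles were found by the root mean square difference of centred log2 CPM over the 6 pools, among 14181 genes. Nearest to Sox10 were the long noncoding RNA Miat (0.0988 log2), Slco4a1 (0.128), Klhl32 (0.140), Slc44a4 (0.146) and Adamtsl3 (0.149). Miat had 33.9, 30.9 and 22.5 CPM in mutant pools 1 to 3, against 60.3, 66.8 and 58.9 CPM in control pools 1 to 3. Nearest to Phox2a were Chrna3 (0.168), Mtap6 (0.230), Elavl3 (0.247), Apba2 (0.275) and Stmn3 (0.283), and of these Chrna3, Elavl3 and Stmn3 were also on the neuronal lists. Dbh had no close neighbour: Vip was nearest at 0.706, followed by Ina at 0.863, Serpina1c at 0.983, Mep1a at 0.991 and Aqp4 at 0.996. Within the 8 genes, the most alike pair was Ednrb and Erbb3 at 0.137, and the least alike was Dbh and Ednrb at 1.89. These distances describe 6 pools from 2 groups and carry no test.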

How the data were processed

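Each of 6 libraries came with a table of whole-number read counts per gene, which the authors deposited without normalization. Per the submitters' processing notes, reads passed through tools among which DESeq2, HTSeq 0.6.1p1, cutadapt 1.13 and STAR are listed, and the build was mm10; roles and order are not listed. The sources used here do not give the annotation, strand setting or handling of multiply mapped reads. Per the labels' protocol RNA was extracted with Trizol, while the series' design text names a column kit.

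Counts were tested in R 4.3.3 with edgeR 4.0.16 (filterByExpr with a minimum count of 10, TMM scaling, quasi-likelihood F test, genotype as the only term), with Benjamini-Hochberg adjustment over 14687 genes and calls at 0.05. Standard errors were derived from each estimate and its F statistic, and 95% intervals assume normality. The test was checked on simulated counts. Log2 CPM used a prior count of 0.5. Pools are separate dissections only as far as the labels say, so p-values measure the spread between these pools. Replicate pools differed by more than counting noise. Alternatives were other scalings and filters, DESeq2 1.42.0, limma 3.58.1 (voom), robust edgeR, a replicate block and leaving out each pool. Of 128 list genes, 127 were found. The text names the 8 genes, list members that passed the test with uncalled examples, and the 5 nearest profiles of Sox10, Phox2a and Dbh. The genes and lists were chosen with earlier results of these data known. Positions are from GENCODE M21 and promoters from RefSeq. Some list genes are counted in the list totals and are not reported here by name, in the text or in the figures.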

Additional observations from a re-analysis of the deposited data

How the results depend on the processing

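Of 532 recomputed values, 484 stayed the same, 24 moved, 12 calls were lost, 8 were gained and 4 signs turned. For single genes, the same means an unchanged direction and side of the threshold. For counts it means a change of at most 1.5 times, and a change to or from 0 was taken as moved. For the neuronal minus glial difference it means a shift smaller than the SD between pools. With DESeq2, 4 of the 8 genes, 9 general neuronal genes and 2 ligand and receptor genes were called lower, among 618 of 15583 tested genes. Leaving out 1 pool at a time gave 629 to 1421 called genes, 282 to 696 of them higher and 343 to 725 lower. Of the 8 genes, 0 to 3 were then called lower, with 0 without mutant pool 2. Dbh, called in 3 of these 6 fits, passed the low-count filter through the control pools alone and adds no support to these counts. The counts ran from 1 to 2 lower and 0 to 1 higher for other crest and glial genes, from 1 to 2 higher for other autonomic genes, and from 1 to 2 lower and 2 to 4 higher for ligands and receptors. Log2 fold changes ran from -0.128 to 0.0285 for Erbb3 and from -0.0976 to 0.0518 for Ednrb, which were not called in any of these fits. The estimate for Dbh ran from -4.56 to -2.20 and that for Prph from -1.45 to -0.31. Dbh was called in 6 of 14 alternatives, with adjusted p from 0.00738 to 0.173, among them no filter (0.0389). A filter at 1 CPM in 3 pools left it out. Across all 15 alternatives the adjusted p of Sox10 ran from 0.000197 to 0.0620 and that of Phox2a from 5.93e-05 to 0.0533. The cause of these changes was not tested.

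Same-numbered pools correlated at 0.126, 0.109 and -0.0987 in their deviations from the group means. Differently numbered pools ran from -0.285 to 0.230. These values carry no test and cannot settle whether the numbers pair the samples. With a replicate block, 1138 of 14687 tested genes were called, 562 of them lower. Among the lower ones were 3 of the 8 genes, Dbh included (log2 fold change -3.91, edgeR adjusted p = 0.0117). As Dbh passed the low-count filter through the control pools alone, it adds no support to that count. Depth limits Dbh, Foxd3 and Phox2a most, where pools held as few as 3, 19 and 12 reads.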
